A study of Saccharomyces cerevisiae with 6 samples.

Results

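The genes described here encode the heat shock chaperones and chaperonin subunits of budding yeast (Saccharomyces cerevisiae). A list of 42 genes was taken by name, with earlier results of these data known, and 40 of them had a spot named by the platform annotation among 5379 named genes. SSA1 and SSB1 were not analysed here. All 40 had a ratio on each of 3 arrays and so were among the 4312 genes tested.

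Molecular chaperones bind unfolded or misfolded proteins and help them reach or regain their native state. Hsp70 proteins bind short hydrophobic stretches in a cycle driven by ATP, in which Hsp40 proteins (J proteins) deliver the substrate and nucleotide exchange factors release it. Hsp90 acts later on a narrower set of clients with the help of co-chaperones, the CCT ring folds actin and tubulin, and Hsp104 with the small heat shock proteins deals with aggregates. In yeast many of these genes are driven by the heat shock factor Hsf1, and some also by the general stress activators Msn2 and Msn4. Of the 40 genes tested, 17 were on the list of Hsf1 targets used here. Another 20 were on neither that list nor the list for Msn2 and Msn4.

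Cells of strain S288C growing exponentially in YPD at 25 °C received zinc pyrithione, dissolved in dimethyl sulfoxide (DMSO), at 12.6 µM for 2 h, and the control culture grew on for 2 h with no addition. Messenger RNA of the treated culture carried Cy5 and that of the control Cy3, and both were hybridised to 1 array, in 3 independent experiments. Each of these arrays was read at a high and a low laser power, and both scans were averaged, so that n = 3 throughout. Ratios are given on the log2 scale as treated over untreated, which is the likely direction from the dyes of the channels but is not stated with the values, so that every "higher" and "lower" would be exchanged if it ran the other way. Dyes were not swapped and the label gives the control no solvent, so that treatment, dye and solvent cannot be told apart. A ratio from a whole culture also cannot tell fewer cells that express a gene from less RNA per cell.

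High-power scans held values for 4693 to 5737 of 6912 spots and low-power scans for 1789 to 3372. Both scans of every array had a value for 29 of the 40 chaperone genes (72.5%), against 31.8% of all genes tested. The median SD between arrays was 0.218 for the chaperone genes and 0.273 for all genes tested.

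Of the 40 chaperone genes, 12 fell, 1 rose and 27 did not pass the test at a limma adjusted p under 0.05, with Benjamini-Hochberg adjustment over all 4312 genes. That is 30.0% lower and 2.5% higher, where 9.60% of all genes tested fell and 8.12% rose. The median log2 ratio of the 40 was -0.31, beside 0.028 for all genes tested. Ratios were negative on all 3 arrays for 21 of the 40 (52.5%) and positive on all 3 for 11 (27.5%), against 26.0% and 28.9% of all genes tested. The classes differed: all 4 mitochondrial chaperone genes fell, all Hsp90 and cytosolic Hsp40 genes had negative means, and 6 of 8 CCT subunit genes had a positive mean with 0 past the threshold. Over all genes tested, 52.3% had a positive and 47.7% a negative mean.

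**Figure D1:**
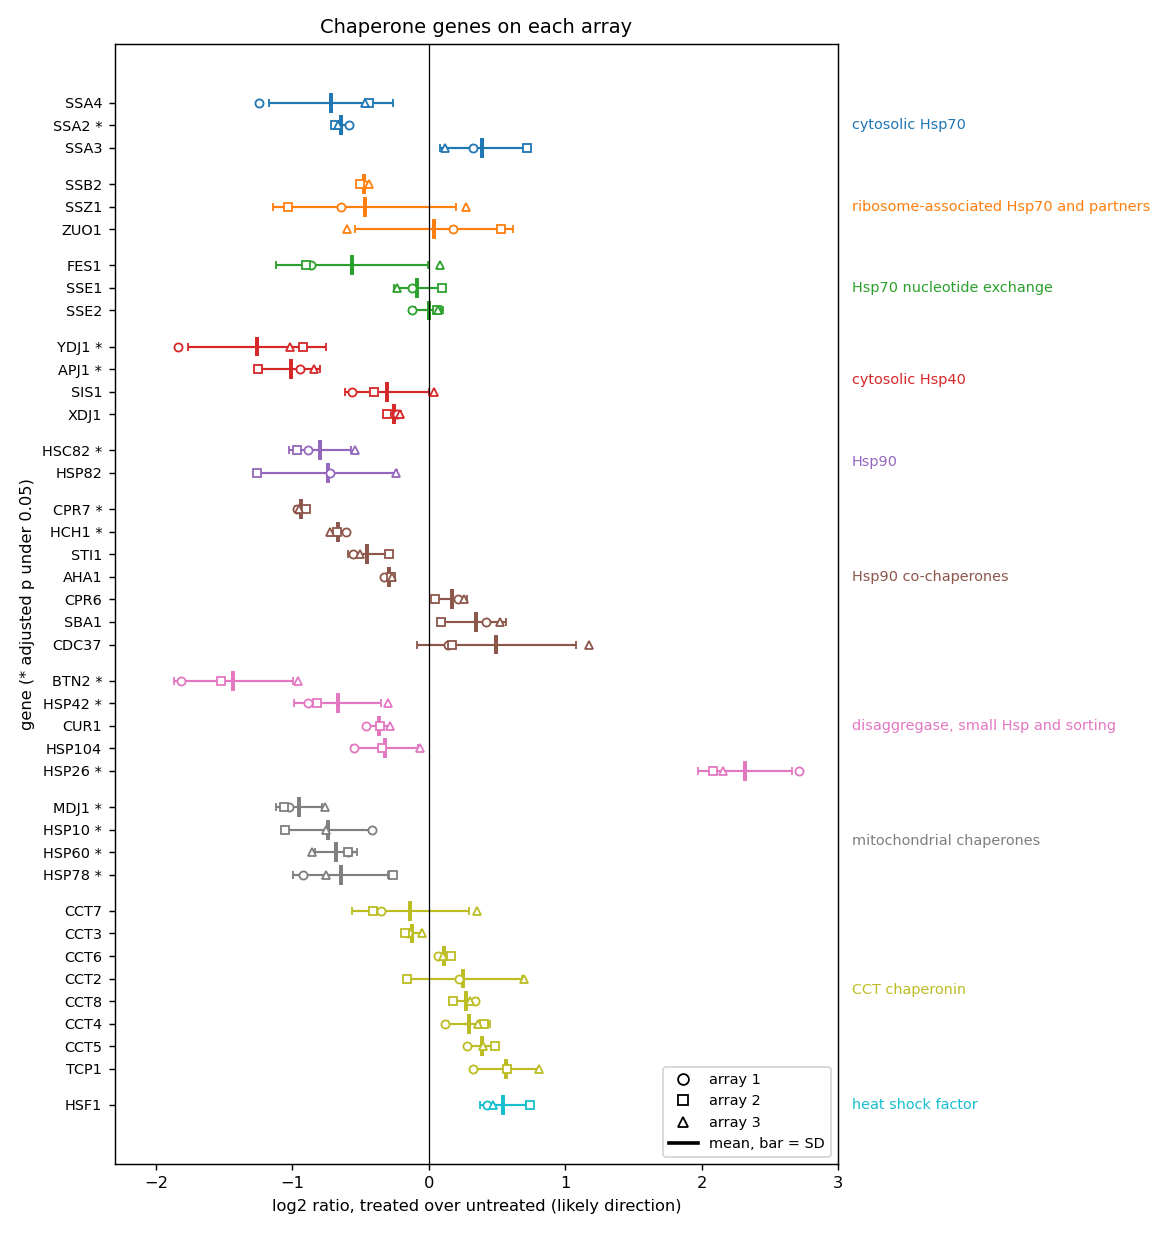
Log2 ratio (treated over untreated, likely direction; x axis) of the 40 chaperone genes, grouped by class, with an open symbol for each array, a thick tick for the mean and a bar for the SD (n = 3). HSP26 stands alone above 2 on all 3 arrays, the mitochondrial class lies left of 0 throughout, and most CCT genes lie right of it.

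Among the cytosolic Hsp70 genes, SSA2, which encodes one of the abundant chaperones made in unstressed cells, fell. Its ratios were -0.58, -0.68 and -0.67 on arrays 1, 2 and 3, a range far narrower than their distance from 0. The mean was -0.65 ± 0.05 (SD, n = 3), or 1.56-fold lower (limma adjusted p = 0.026). SSA4, the strongly heat-inducible member of the family, read -1.24, -0.44 and -0.47. All 3 arrays were negative, with array 1 apart from the others, and the mean of -0.72 ± 0.46 just missed the threshold (limma adjusted p = 0.051). The value of array 1 joins scans that disagreed, -0.38 at high and -2.11 at low power, and in the high-power scans alone SSA4 stood at -0.45 (limma adjusted p = 0.048). It also passed with both scans required and with either way of centring (limma adjusted p from 0.035 to 0.042). SSA4 did not pass with low-power scans alone (limma adjusted p = 0.13) or with any single array left out (limma adjusted p from 0.078 to 0.26). SSA3, which is also stress-induced, was positive on all 3 arrays at 0.33, 0.72 and 0.12, with a mean of 0.39 ± 0.31 (limma adjusted p = 0.17) and no value in any low-power scan. SSA3 thus exceeded SSA4 on every array, by 1.10 ± 0.49 on average. That difference sets high-power values of SSA3 against the average of both scans of SSA4. With high-power scans alone the means were 0.39 for SSA3 and -0.45 for SSA4. Coding sequences of this family are closely alike, so a cDNA spot for SSA2 can also bind SSA1 transcripts.

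The ribosome-associated Hsp70 SSB2, which meets the chain as it leaves the ribosome, had nearly equal ratios of -0.48, -0.50 and -0.43. Its mean of -0.47 ± 0.03 did not pass the test (limma adjusted p = 0.066), although the arrays hardly differed. It passed with high-power scans alone at -0.54 (limma adjusted p = 0.026). SSB2 did not pass with low-power scans alone (limma adjusted p = 0.19) or with any single array left out (limma adjusted p from 0.13 to 0.25). SSZ1 and ZUO1 encode the partners of the ribosome-associated complex, an atypical Hsp70 and its J protein, and array 3 went against the other arrays in both. SSZ1 read -0.64, -1.03 and 0.27, and ZUO1 read 0.18, 0.53 and -0.60. Their means of -0.47 ± 0.67 and 0.037 ± 0.58 were smaller than the SD between arrays, and SSZ1 passed without array 3 at -0.84 (limma adjusted p = 0.048). SSZ1 did not pass without array 1 or array 2 (limma adjusted p = 0.51 and 0.71). Spots for SSB2 can likewise bind transcripts of SSB1.

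Of 3 nucleotide exchange factors of Hsp70, 0 passed the limma threshold, and 1 (FES1) was lower at an unadjusted p under 0.05, as were 17.3% of all genes tested. SSE1, an Hsp110 gene, had ratios of -0.12, 0.096 and -0.23, and its stress-inducible paralog SSE2 had -0.12, 0.061 and 0.065. Both straddled 0, with 95% confidence intervals of the mean from -0.45 to 0.28 for SSE1 and from -0.36 to 0.36 for SSE2. FES1, the Hsp70 exchange factor of the armadillo type, stood at -0.86 and -0.90 on arrays 1 and 2 but at 0.080 on array 3. On array 3 FES1 read -0.16 at high and 0.32 at low power. Its mean was -0.56 ± 0.56 (limma adjusted p = 0.13), and -0.88 without array 3 (limma adjusted p = 0.034). Without array 1 or array 2 it was -0.41 or -0.39 and did not pass (limma adjusted p = 0.42 each).

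All 4 cytosolic Hsp40 genes had a negative mean, and 2 of them fell. YDJ1, the main general J protein of the cytosol, had ratios of -1.84, -0.92 and -1.02, the array 1 value being the lowest of any chaperone gene here. The mean was -1.26 ± 0.50, or 2.39-fold lower (limma adjusted p = 0.0084). APJ1, a J protein of the same type that acts on aggregated and SUMO-linked proteins, fell as well, with -0.94, -1.25 and -0.84 and a mean of -1.01 ± 0.21 (limma adjusted p = 0.0068). SIS1, the essential J protein that hands aggregates to Hsp104, read -0.56, -0.40 and 0.035, with a mean of -0.31 ± 0.31 (limma adjusted p = 0.25). Its array 3 value joins -0.20 at high and 0.28 at low power. XDJ1, a relative of YDJ1, was close to -0.25 on every array, between -0.31 and -0.21 (limma adjusted p = 0.28). The gap between SIS1 and YDJ1 was 0.95 ± 0.39 with the same sign on all 3 arrays.

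Both Hsp90 genes were negative on all 3 arrays. HSC82, the constitutive gene, read -0.89, -0.96 and -0.54, and fell with a mean of -0.80 ± 0.22, or 1.74-fold lower (limma adjusted p = 0.017). HSP82, the more heat-inducible gene, read -0.72, -1.26 and -0.24, so its arrays spread more widely. The mean of -0.74 ± 0.51 just missed the threshold (limma adjusted p = 0.053). It passed with high-power scans alone at -0.76 (limma adjusted p = 0.015), without array 3 at -0.99 (limma adjusted p = 0.036), with both scans required and with either way of centring (limma adjusted p from 0.039 to 0.047). Without array 1 or array 2 HSP82 did not pass (limma adjusted p = 0.18 and 0.24). The paralogs were not set apart, with a difference of 0.057 ± 0.31 for HSP82 minus HSC82 and both signs among the arrays. Their sequences are closely alike, so each spot can bind transcripts of both.

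The Hsp90 co-chaperone genes split. CPR7, a peptidyl-prolyl isomerase with a TPR domain, fell with -0.97, -0.90 and -0.95, a mean of -0.94 ± 0.04 and a 1.92-fold lower level (limma adjusted p = 0.0066). HCH1, a small relative of the Hsp90 activator AHA1, fell too, with -0.60, -0.67 and -0.72 and a mean of -0.66 ± 0.06 (limma adjusted p = 0.024). Values of both genes lay close together and far from 0. STI1, the adaptor between Hsp70 and Hsp90, was negative on every array at -0.55, -0.29 and -0.51 without passing (limma adjusted p = 0.084). AHA1, which stimulates the Hsp90 ATPase, had ratios between -0.33 and -0.27 and a mean of -0.29 ± 0.03 (limma adjusted p = 0.21). The remaining members of this class were positive on all 3 arrays and did not pass. CPR6, the paralog of CPR7, had a mean of 0.17 ± 0.11. SBA1, the yeast p23, had 0.35 ± 0.22. CDC37, which brings kinases to Hsp90, read 0.14, 0.17 and 1.17, so that its mean of 0.50 ± 0.59 rests on array 3.

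Related genes could thus differ on the same array. CPR6 exceeded CPR7 by 0.94 to 1.21 on each array, with a mean difference of 1.11 ± 0.15. AHA1 exceeded HCH1 by 0.27 to 0.45 (mean 0.37 ± 0.09). With 3 arrays a two-sided exact sign-flip permutation test of such a difference cannot give a p below 0.25, so these differences are given with their spread and without a p.

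**Figure D2:**
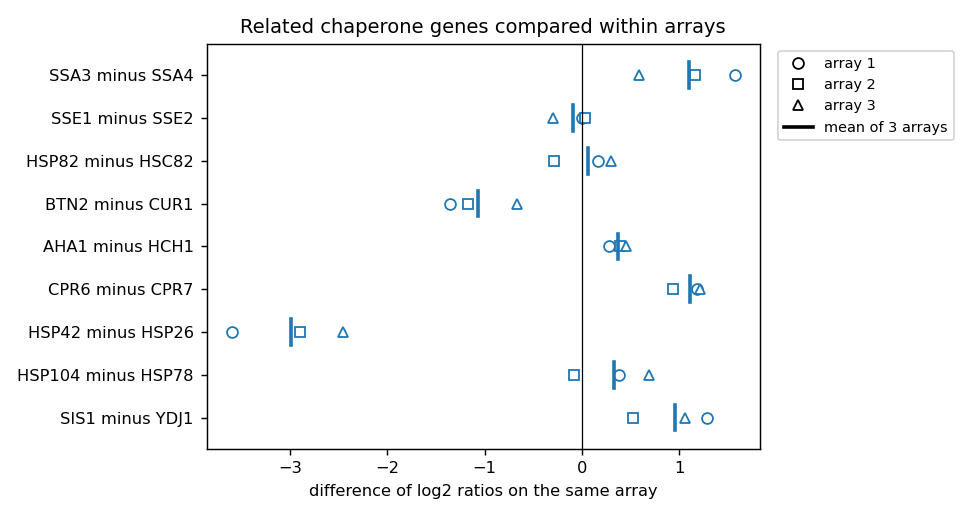
Difference of the log2 ratios of related or partner chaperone genes on the same array (x axis), with an open symbol for each array and a tick for the mean of 3 arrays. CPR6 minus CPR7, SSA3 minus SSA4, AHA1 minus HCH1 and SIS1 minus YDJ1 are positive on all 3 arrays, BTN2 minus CUR1 and HSP42 minus HSP26 are negative on all 3, and the other 3 pairs have both signs.

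The class that handles aggregates held both extremes. HSP26, a small heat shock protein that co-aggregates with misfolded proteins, rose 4.99-fold, and was the sole chaperone gene past the threshold in that direction. Its ratios of 2.72, 2.08 and 2.16 were all far above any other value in the list, and the mean was 2.32 ± 0.35 (limma adjusted p = 0.00033). Its rank among all genes tested was at the 99.7th percentile from the lowest, which would be 0.325 if the ratio ran the other way. HSP26 had values in the 3 high-power scans and in 0 low-power scans. HSP42, the other small heat shock protein, which organises cytosolic aggregates, went the opposite way with -0.88, -0.82 and -0.30. It fell with a mean of -0.67 ± 0.32 (limma adjusted p = 0.043). The difference HSP42 minus HSP26 lay between -3.60 and -2.46 on the log2 scale over the arrays.

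BTN2, which sorts misfolded proteins into deposits inside the cell, was the lowest chaperone gene. It read -1.82, -1.52 and -0.96, and its mean of -1.43 ± 0.44 made it 2.70-fold lower (limma adjusted p = 0.0038). Its paralog CUR1 was negative on all 3 arrays but nearer to 0, at -0.46, -0.36 and -0.29 (mean -0.37 ± 0.09, limma adjusted p = 0.13), and BTN2 lay below it on each array. HSP104, the cytosolic disaggregase, had ratios of -0.55, -0.34 and -0.066, all below 0, and a mean of -0.32 ± 0.24 (limma adjusted p = 0.22).

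Mitochondrial chaperones were the class in which every listed gene fell. HSP60, the matrix chaperonin, had ratios of -0.59, -0.59 and -0.85 (mean -0.68 ± 0.15, limma adjusted p = 0.026). Its lid HSP10 read -0.42, -1.05 and -0.75 (mean -0.74 ± 0.32, limma adjusted p = 0.029). With both scans averaged, these partners of the chaperonin had folds of 1.60 and 1.67 toward lower. High-power scans alone put HSP60 at -0.80 and HSP10 at -0.57, whereas low-power scans alone put HSP60 at -0.56 and HSP10 at -0.91. MDJ1, the matrix J protein, was the lowest of the class at -1.03, -1.06 and -0.76 (mean -0.95 ± 0.17, limma adjusted p = 0.0077). HSP78, the matrix relative of Hsp104, read -0.92, -0.26 and -0.76, and its mean of -0.65 ± 0.35 lay at the threshold (limma adjusted p = 0.0497). Its array 2 value joins -0.58 at high and 0.062 at low power, and array 1 had no low-power value. In high-power scans alone HSP78 stood at -0.76 (limma adjusted p = 0.0085). Quantile normalization (mean -0.67, limma adjusted p = 0.053) and testing all genes with at least 2 arrays (limma adjusted p = 0.058) ended the call of HSP78. The calls of HSP60, HSP10 and HSP78 ended whichever single array was left out, and that of MDJ1 ended without array 1 or array 2.

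In the CCT chaperonin, an eight-membered ring in the cytosol, 0 of 8 genes passed the limma threshold in either direction, and 2 (TCP1 and CCT5) were higher at an unadjusted p under 0.05, as were 17.2% of all genes tested. TCP1 was highest, with 0.32, 0.58 and 0.81 and a mean of 0.57 ± 0.24, a little short of the threshold (limma adjusted p = 0.054). CCT5 (0.39 ± 0.10), CCT4 (0.29 ± 0.15), CCT8 (0.27 ± 0.09) and CCT6 (0.11 ± 0.05) were positive on all 3 arrays. CCT2 had a mean of 0.25 ± 0.43 with array 2 below 0. CCT3 (-0.12 ± 0.07) was the sole subunit gene negative on all 3 arrays, although its array 3 value joins -0.34 at high and 0.25 at low power. CCT7, with values in high-power scans alone, read -0.35, -0.41 and 0.36, so that its sign changed with the array. The 8 subunits of this 1 complex ranged from -0.13 to 0.57, with an SD over genes of 0.24, beside a median SD between arrays of 0.13.

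The gene of the regulator, HSF1, was positive on all 3 arrays at 0.43, 0.74 and 0.47. Its mean of 0.55 ± 0.17, or 1.46-fold, just missed the threshold (limma adjusted p = 0.053). It passed in the high-power scans alone at 0.51 (limma adjusted p = 0.035), as TCP1 did at 0.48 (limma adjusted p = 0.036). In those scans 12.1% of all genes rose. With low-power scans alone neither passed (limma adjusted p = 0.10 for HSF1 and 0.11 for TCP1). Nor did either pass with any single array left out (limma adjusted p from 0.10 to 0.23 for HSF1 and from 0.12 to 0.18 for TCP1). Of 17 tested members on the Hsf1 list used here, 9 fell and 0 rose by the limma test, where 9.60% and 8.12% of all genes tested did. At an unadjusted p under 0.05 the counts were 13 and 0, where 17.3% and 17.2% of all genes were lower and higher. A negative mean was found for 16 of the 17, beside 47.7% of all genes, and the median was -0.65. CPR6 was the exception in sign on this list. The list was written with earlier results of these data known and need not hold every gene that Hsf1 drives. Of the 20 members on neither the Hsf1 list nor that of Msn2 and Msn4, 3 fell (CPR7, HSP60 and HSP10) and 0 rose by the limma test, and the median was 0.075. At an unadjusted p under 0.05, 3 were higher (TCP1, CCT5 and HSF1) and 4 lower, both near the shares over all genes. All 8 CCT genes, with a median of 0.26, and HSF1 itself are among these 20. The 20 genes thus differ from those on the Hsf1 list in chaperone class too. On the list of 9 Msn2 and Msn4 targets, which shares HSP42, HSP78 and HSP104 with that of Hsf1, HSP26 rose and HSP42, HSP78 and the catalase gene CTT1 (-3.38 ± 0.66) fell. The other 5 (HSP104, SSA4, SSE2, HSP12 and DDR2) did not pass, and the median of the 9 was -0.32. At an unadjusted p under 0.05, 1 of the 9 was higher and 4 were lower. These lists overlap and hold genes that both regulators drive.

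Class medians on each array put the CCT chaperonin above the other multi-gene classes every time. The CCT median was 0.17, 0.17 and 0.36 on arrays 1, 2 and 3. For the mitochondrial class it was -0.76, -0.82 and -0.76, so that the difference was 1.01 ± 0.09. Toward the 3 tested cytosolic Hsp70 genes the CCT difference was 0.73 ± 0.11, toward Hsp40 genes 0.88 ± 0.04 and toward Hsp90 genes 1.00 ± 0.27. The smallest was that toward the nucleotide exchange factors, 0.23 ± 0.11, ranging from 0.11 to 0.29 over the arrays. Medians of Hsp90 varied most between arrays, from -1.11 to -0.39, in step with HSP82. These differences of medians are descriptions and carry no p.

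**Figure D3:**
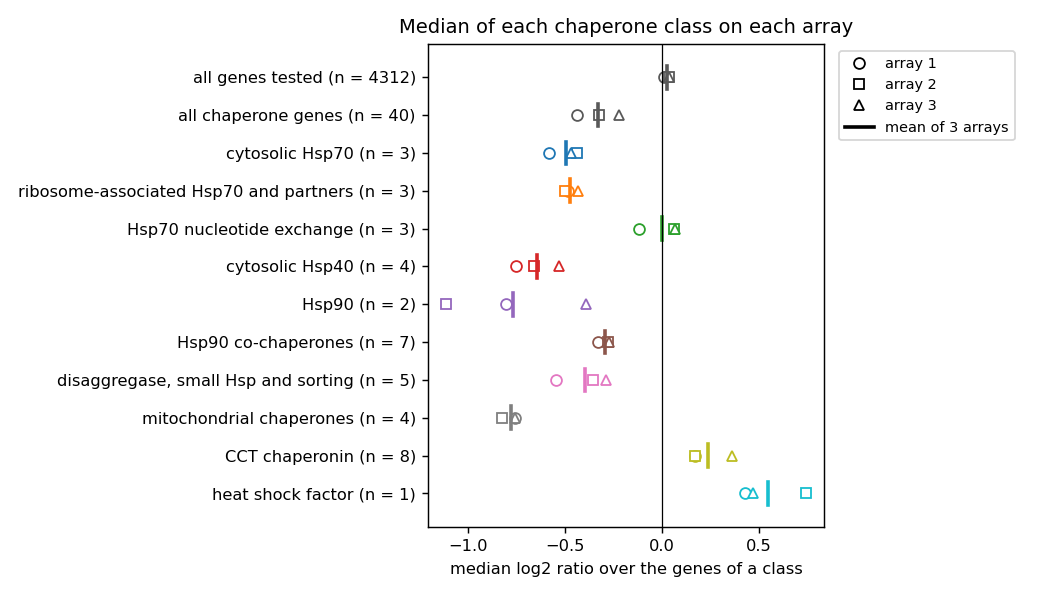
Median log2 ratio over the tested genes of each class (x axis) on arrays 1, 2 and 3, with a tick for the mean of the 3 medians, beside all 40 chaperone genes and all 4312 genes tested. The CCT and HSF1 rows lie right of 0 on every array, and the mitochondrial row has the lowest mean, -0.78, with an SD of 0.04.

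Further chaperone genes outside the list were measured for context, and 31 of the 49 had values on all arrays. Of these 4 rose and 4 fell (12.9% each), beside the 8.12% and 9.60% over all genes tested, with a median of 0.11. Of 8 other mitochondrial chaperone genes tested, 2 fell, 1 rose and 5 did not pass, with a median of -0.14. SSC1, the main matrix Hsp70, fell to -1.25 ± 0.34 (limma adjusted p = 0.0047), as did its exchange factor MGE1 at -0.65 ± 0.33 (limma adjusted p = 0.047). ECM10, a minor matrix Hsp70, rose to 0.71 ± 0.32 (limma adjusted p = 0.033). Of 4 tested prefoldin genes, whose products pass actin and tubulin to CCT, PFD1 fell, with -0.76, -1.62 and -0.62 on the arrays (limma adjusted p = 0.022), and the other 3 did not pass. Among 5 other J proteins, SWA2, which uncoats clathrin vesicles, rose (0.80 ± 0.18) and HLJ1 of the endoplasmic reticulum membrane fell (-0.72 ± 0.42). Of 6 tested chaperones of the endoplasmic reticulum, LHS1 rose (0.58 ± 0.20), whereas KAR2, its main Hsp70, stood at 0.14 ± 0.24. HSP31, which encodes a protein of the DJ-1 family with methylglyoxalase activity, rose, with ratios between 1.45 and 1.57 and a mean of 1.51 ± 0.06 (limma adjusted p = 0.0008). It was 1 of 4 tested genes for other heat-induced proteins, and the other 3 (HSP12, HSP30 and MBF1) did not pass. No gene passed among the 2 tested genes of the nascent chain complex and the 2 tested other Hsp90 co-chaperones (limma adjusted p between 0.059 and 0.40).

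**Figure D4:**
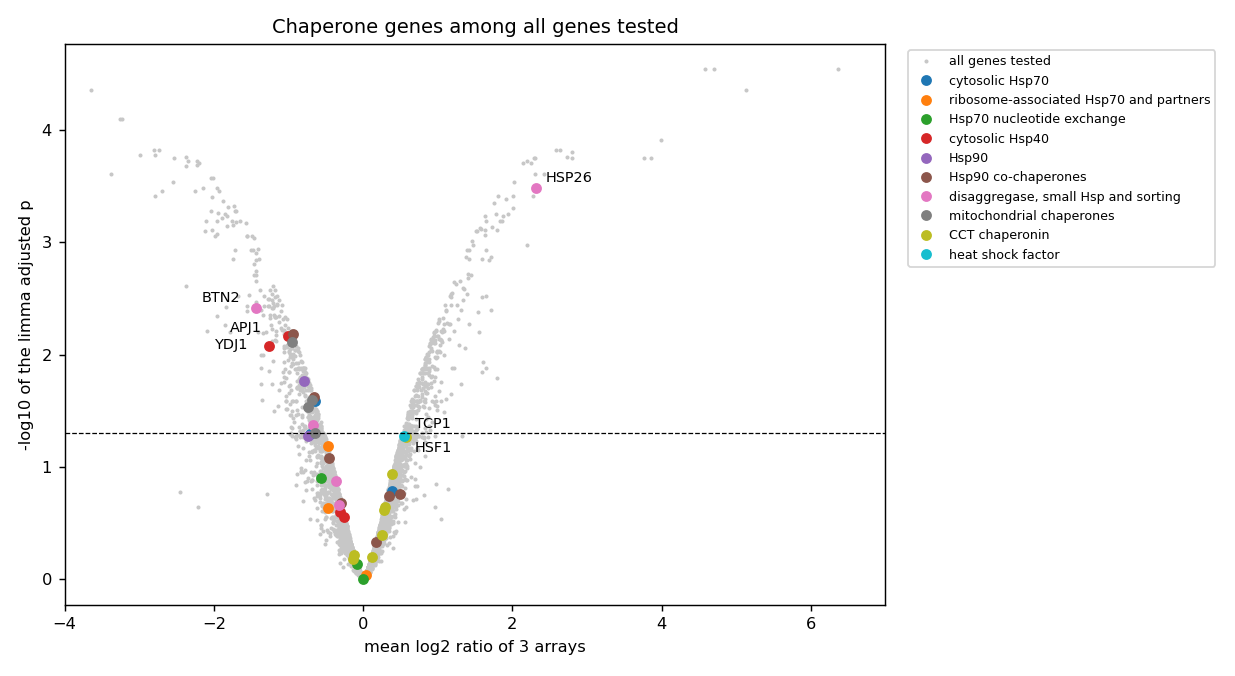
Mean log2 ratio of 3 arrays (x axis) against minus log10 of the limma adjusted p (y axis) for all 4312 genes tested (grey) and the 40 chaperone genes (coloured by class), with a dashed line at an adjusted p of 0.05. HSP26 is the sole chaperone gene above the line on the right, and TCP1 and HSF1 lie just under it.

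The calls of HSP26, BTN2, YDJ1 and APJ1 held whichever single array was left out. The other 9 ended without at least 1 array, and the count of chaperone genes that fell was 3 without array 1, 4 without array 2 and 10 without array 3. Against a minimum change of 1.5-fold (limma's treat), HSP26 passed and BTN2 was closest among the others (limma adjusted p = 0.051). With low-power scans alone 29 chaperone genes were tested and 4 fell, and the calls of YDJ1, HSC82, HCH1, HSP42, HSP60 and HSP10 ended. That of HSP42 also ended when all genes with at least 2 arrays were tested. With high-power scans alone the counts were 18 lower and 3 higher of 40, where 13.4% and 12.1% of all genes fell and rose. Besides genes already named, STI1 and CUR1 passed there as lower (limma adjusted p = 0.043 and 0.042), and so did FES1 (limma adjusted p = 0.034). Among the 29 chaperone genes with both scans on every array, 13 fell and 2 rose, where 13.3% and 12.8% of such genes did.

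Both scans of an array gave like ratios for most chaperone genes. Over 102 pairs of scans the median absolute difference was 0.232, against 0.207 for all genes tested, and 1 pair differed by more than 1 (0.98%, against 2.27%). That pair was SSA4 on array 1. The next widest gap was that of HSP10 on array 3, with -0.33 at high and -1.17 at low power. On array 3 every CCT gene with both scans was lower at high power, by a high minus low of -0.60 (CCT2) to -0.11 (CCT4). The median of the CCT genes was 0.17 with high-power scans alone and 0.34 with low-power scans alone, the latter over 5 genes.

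**Figure D5:**
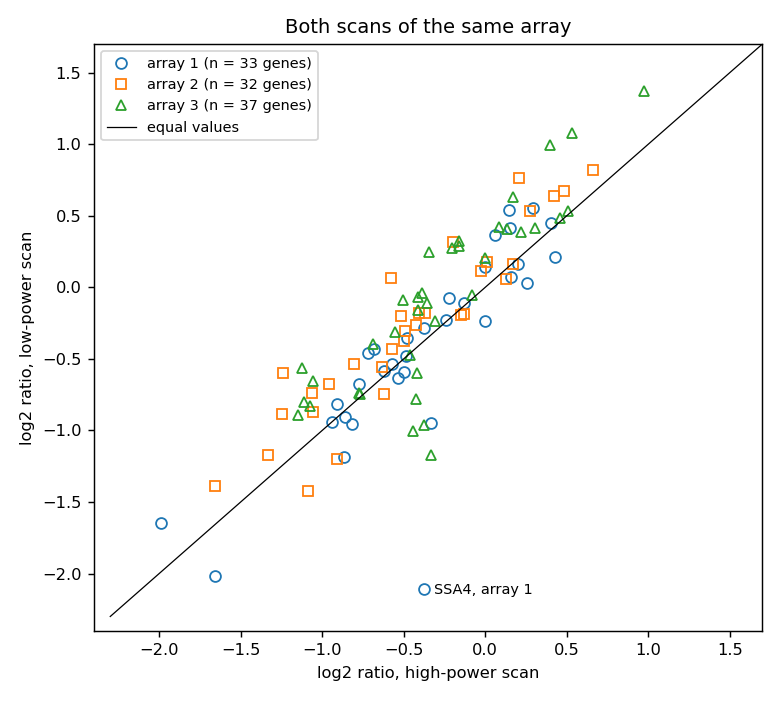
Log2 ratio in the high-power scan (x axis) against the low-power scan (y axis) of the same array for chaperone genes with both values, 33 on array 1, 32 on array 2 and 37 on array 3. The line marks equal values, and SSA4 on array 1, at -0.38 and -2.11, lies farthest from it.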

How the data were processed

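The deposited values are log2 ratios of both dyes, 1 column per scan, from 2-colour cDNA arrays. Per the labels, the authors used spots with no quality flag for LOWESS normalization. The base was read from the lowest value, -6.64, which is the base-2 logarithm of 0.01. Intensities, and the merged value the labels mention, were not analysed here, so that signal over background is unknown. Centring by LOWESS hides a shift shared by most transcripts. Versions of the analysis software and array build are not given in the sources used here. By name, the platform annotation gave 1 gene for 5446 of the 6912 spots, which were matched to RefSeq (assembly R64) by gene ID and stood for 5379 genes. Spots of a gene were averaged, then both scans of an array where present. Mean ratios of genes with values on 3 arrays were tested against 0 with limma 3.58.1 (lmFit, eBayes, R 4.3.3) and Benjamini-Hochberg adjustment over all 4312 genes. The procedure was tested on simulated data. All listed genes were named, and context genes where past the threshold. The members, lists and tests were chosen with earlier results of these data known. Alternatives were single scans, both scans required, at least 2 arrays, centring, quantile normalization, robust eBayes, limma's treat, an adjusted p under 0.01 and each array left out. The number of arrays limits the precision. Figures were drawn with matplotlib 3.10.9.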

Additional observations from a re-analysis of the deposited data

How the results depend on the processing

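All 13 chaperone genes past the threshold kept their sign under every alternative that tested them. With 1 array left out this was fixed in advance, because each of the 13 had the same sign on all 3 arrays. Robust eBayes, limma's treat, an adjusted p under 0.01, both scans required and at least 2 arrays reuse the same mean wherever a gene was tested. HSP26, with no low-power value, also has the same mean in high-power scans alone. The counts that follow give all genes higher, all genes lower, chaperone genes higher and chaperone genes lower, which were 350, 414, 1 and 12. With low-power scans alone they were 74, 77, 0 and 4, of 1429 genes and 29 chaperone genes tested. With both scans required they were 175, 182, 2 and 13, and the chaperone median was -0.45. With limma's treat they were 65, 77, 1 and 0, and at an adjusted p under 0.01 they were 132, 163, 1 and 5. High-power scans alone gave 515, 570, 3 and 18. Leaving out 1 array gave 132 to 279 genes higher, 179 to 318 lower, 1 chaperone gene higher each time and 3 to 10 lower, where genes with values on both remaining arrays were tested and 2 arrays leave a larger error. Centring the 8 sets of spots that share a leading digit of their number, chosen after the data were seen, moved the chaperone median to -0.42. Genes near 0 changed sign. SSE2 went from 0.0021 to -0.16 in high-power scans, -0.048 with centred scans, -0.0021 with quantile normalization, -0.023 with centred sets, and -0.030 to 0.063 with arrays left out. ZUO1 went to -0.013 with centred scans and -0.10 with centred sets, and ranged from -0.21 to 0.36 with arrays left out. CCT7 ranged from -0.38 to 0.0040 with arrays left out. The cause of these changes was not tested. The median of each chaperone class kept its sign throughout, between 0.16 and 0.34 for CCT and between -0.91 and -0.66 for the mitochondrial class. No paired analysis was possible because each ratio already pairs treated with untreated cells on 1 array and the series has 1 group.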

Other observations

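Array 3 gave the highest of the 3 ratios for 22 of the 40 chaperone genes (55.0%) and the lowest for 5 (12.5%), whereas over all genes tested these shares were 36.6% and 36.3%. Array 1 gave the lowest ratio for 18 (45.0%) and the highest for 6 (15.0%), against 31.7% and 28.5% of all genes. The median of the 40 was -0.44, -0.32 and -0.22 on arrays 1, 2 and 3. FES1, SIS1, SSZ1 and CCT7 were negative on arrays 1 and 2 and positive on array 3, and ZUO1 the reverse. These 5 genes are 12.5% of the 40, where 18.7% of all genes tested had array 3 alone on the other side of 0. The array 3 scans of FES1 and SIS1 differed in sign, with -0.16 and -0.20 at high and 0.32 and 0.28 at low power. Over the 40 genes, which are not independent replicates and share arrays and normalization, Pearson's r between arrays was 0.895 for arrays 1 and 2, 0.839 for 1 and 3 and 0.754 for 2 and 3, and it was 0.847, 0.753 and 0.644 over 39 genes without HSP26. Over all genes tested r was 0.716, 0.673 and 0.650 for the same pairs of arrays.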
